A study of Homo sapiens with 11 samples.

Results

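Expression of 10 genes of haem breakdown and of the NRF2 antioxidant response was examined in 11 RNA sequencing libraries of a human acute myeloid leukaemia (AML) line and its FLT3-ITD counterpart. The genes were HMOX1, BLVRB, BACH1, NFE2L2, KEAP1, NQO1, GCLM, GCLC, TXNRD1 and SRXN1, taken by symbol from the 58037 rows of the count table. All 10 passed the filter on low counts, as did 18908 of the 58037 rows. HMOX1 was selected on its FHD-286 fold changes, which were among the largest increases in both lines, and the other 9 genes were added by pathway. The FHD-286 values of the 10 genes are therefore a description and carry no test.

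The parent, OCI-AML3, is an established human leukaemia line. The second line carries in its name an internal tandem duplication (ITD) of FLT3, the growth factor receptor that is often mutated in AML. FHD-286 is an inhibitor of the ATPase subunits BRG1 and BRM that drive BAF chromatin remodelling. The groups were OCI-AML3-FLT3-ITD with 100 nM FHD-286 for 16 h (n = 2), OCI-AML3-FLT3-ITD control (n = 3), OCI-AML3 with 100 nM FHD-286 for 16 h (n = 3) and OCI-AML3 control (n = 3). Whether controls received a vehicle, how the duplication was introduced and whether the FLT3-ITD line is 1 clone is not given in the sources used here. The labels do not say whether replicates were separate cultures, so the spread behind each p-value is that of these libraries and may be technical.

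HMOX1 encodes haem oxygenase-1, the inducible enzyme that opens haem into biliverdin, iron and carbon monoxide, and BLVRB encodes a biliverdin reductase. NFE2L2 encodes NRF2, a transcription factor that KEAP1 holds in the cytoplasm and marks for degradation until oxidants or electrophiles modify KEAP1. NRF2 pairs with small MAF proteins on antioxidant response elements (AREs), which BACH1, a haem-binding repressor, occupies at HMOX1 and other targets when haem is scarce. The other 5 genes are classical NRF2 targets that reduce quinones (NQO1), build glutathione (GCLC, GCLM) and regenerate thioredoxin (TXNRD1) and peroxiredoxin (SRXN1).

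1 library stood apart from its label, which may be wrong. Levels are given as normalised CPM, counts scaled to a common library total with TMM factors. FLT3 reached 171 and 169 CPM in FLT3-ITD cells with FHD-286, and 178 and 203 CPM in FLT3-ITD controls 1 and 3, but 53.4 CPM in the library labelled FLT3-ITD control 2. The 6 OCI-AML3 libraries held 39.2 to 43.3 CPM. The library labelled FLT3-ITD control 2 also held the lowest level of 6 of the 10 genes (NFE2L2, KEAP1, NQO1, GCLM, GCLC and TXNRD1) among all 11 libraries. Across the genes compared, its log2 CPM correlated at 0.964 to 0.974 with the OCI-AML3 controls, against 0.910 and 0.916 with the other FLT3-ITD controls, which correlated at 0.995 with each other. Mitochondrial genes took 8.85% of its counts, against 4.82% and 4.48% in those 2 controls. The FLT3-ITD control means and SDs, and the list counts, include it unless stated otherwise. Values without it are given for part of the results, so a result given without such a value may also have changed. Total counts were 58397190 to 79172389 per library, where 3 counts correspond to 0.0366 to 0.0548 CPM, a limit that covers counting error only.

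The promoter windows of 4 NRF2 targets are shown because these genes took different directions under FHD-286 in OCI-AML3. GCLC and NQO1 were higher, GCLM and TXNRD1 lower, and none of these 4 changes was called with all libraries. Each window runs from 250 bases before to 50 bases after a transcription start in RefSeq (GRCh38.p14), 5′ to 3′ on the gene's own strand, and capitals mark matches to the ARE core TGACNNNGC on either strand.
GCLC, chr6:53545052-53545351, minus strand: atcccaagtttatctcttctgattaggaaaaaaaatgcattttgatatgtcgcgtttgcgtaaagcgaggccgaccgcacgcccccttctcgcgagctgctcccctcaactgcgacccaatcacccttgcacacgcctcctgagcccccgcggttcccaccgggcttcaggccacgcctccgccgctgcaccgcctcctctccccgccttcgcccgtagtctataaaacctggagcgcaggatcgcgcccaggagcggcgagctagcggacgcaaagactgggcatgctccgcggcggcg
NQO1, chr16:69726511-69726810, minus strand: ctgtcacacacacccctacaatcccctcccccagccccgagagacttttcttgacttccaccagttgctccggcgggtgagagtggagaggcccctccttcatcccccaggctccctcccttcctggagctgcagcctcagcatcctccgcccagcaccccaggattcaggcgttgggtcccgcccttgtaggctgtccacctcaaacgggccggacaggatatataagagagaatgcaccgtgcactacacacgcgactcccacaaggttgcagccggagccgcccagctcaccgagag
GCLM, chr1:93909381-93909680, minus strand: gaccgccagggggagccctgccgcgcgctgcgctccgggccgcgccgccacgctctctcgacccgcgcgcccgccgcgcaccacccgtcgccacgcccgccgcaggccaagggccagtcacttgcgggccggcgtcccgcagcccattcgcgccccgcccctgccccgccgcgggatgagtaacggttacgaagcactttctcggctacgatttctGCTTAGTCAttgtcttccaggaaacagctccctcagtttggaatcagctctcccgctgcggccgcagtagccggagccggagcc
TXNRD1 first window, chr12:104215529-104215828, plus strand: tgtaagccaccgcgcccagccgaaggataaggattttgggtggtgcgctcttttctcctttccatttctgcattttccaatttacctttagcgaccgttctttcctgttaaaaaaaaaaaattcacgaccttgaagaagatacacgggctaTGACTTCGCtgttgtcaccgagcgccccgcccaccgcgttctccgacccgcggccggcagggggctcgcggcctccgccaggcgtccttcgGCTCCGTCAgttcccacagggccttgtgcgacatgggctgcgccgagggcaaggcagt
TXNRD1 second window, chr12:104286782-104287081, plus strand: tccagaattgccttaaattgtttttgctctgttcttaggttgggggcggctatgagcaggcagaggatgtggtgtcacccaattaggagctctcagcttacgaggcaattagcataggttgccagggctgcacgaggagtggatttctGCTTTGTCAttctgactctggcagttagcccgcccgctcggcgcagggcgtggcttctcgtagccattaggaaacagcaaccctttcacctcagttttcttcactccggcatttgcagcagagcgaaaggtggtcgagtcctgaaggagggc

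The GCLM window held 1 core match, at window positions 217 to 225, the first TXNRD1 window 2, at positions 152 to 160 and 243 to 251, and the second TXNRD1 window 1, at positions 149 to 157, while the GCLC and NQO1 windows held none. The RefSeq table listed 14 windows for 9 of the 10 genes, all but HMOX1. The core was in 4 of these 14 windows, belonging to GCLM, KEAP1 and TXNRD1, against 13.3% of 35116 promoter windows. The SRXN1 window, not shown, held no match. SRXN1 was also lower with FHD-286 in OCI-AML3 (log2 fold change -0.54, not called). The AP-1 motif TGANTCA, which can overlap an ARE core, was in 1 of the 14 windows, at BACH1, against 7.71% of all windows. A match is a description of these letters only, and elements farther from the start lie outside the windows.

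HMOX1 (ENSG00000100292.16, GRCh38 chromosome 22, 35380361 to 35394214, plus strand) had the widest relative range of the 10 genes, with its highest library 36.7-fold above its lowest. It was at 19.9 and 22.8 CPM in OCI-AML3-FLT3-ITD cells with FHD-286, against 5.43, 1.33 and 4.11 CPM in FLT3-ITD controls 1, 2 and 3. It was at 11.1, 9.82 and 11.8 CPM in OCI-AML3 cells with FHD-286, against 0.621, 0.781 and 1.22 CPM in OCI-AML3 controls. Every treated library of a line was above every control of that line, and treated OCI-AML3 libraries were above all controls of both lines. The levels ordered as treated FLT3-ITD, treated OCI-AML3, FLT3-ITD control and OCI-AML3 control, with no overlap between neighbours. The closest approach was between the library labelled FLT3-ITD control 2, at 1.33 CPM, and the highest OCI-AML3 control, at 1.22 CPM. The log2 fold change with FHD-286 was 2.56 (SE 0.44) in OCI-AML3-FLT3-ITD, or 2.17 (SE 0.15) without that library, and 3.64 (SE 0.45) in OCI-AML3. Raw counts were 34, 50 and 68 in the OCI-AML3 controls, so the base of the OCI-AML3 fold change rests on few reads.

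**Figure D1:**
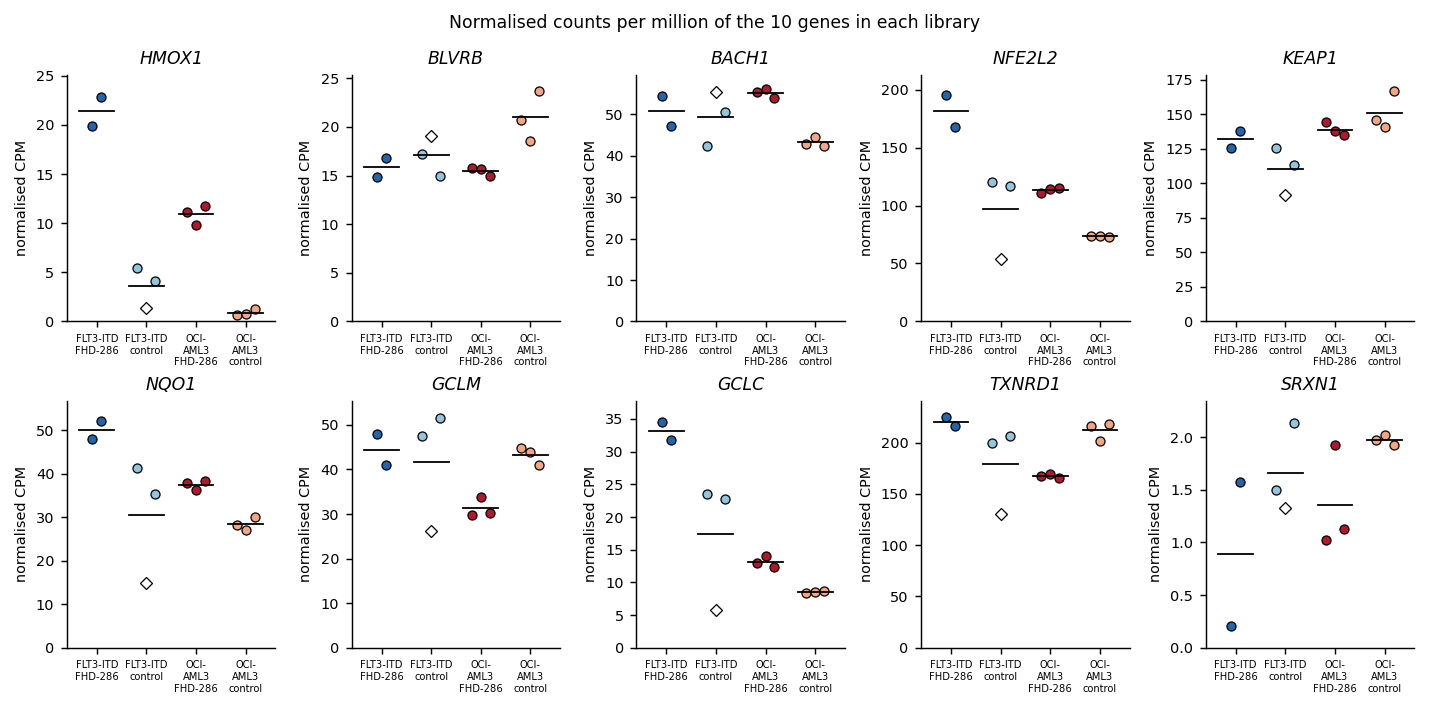
Normalised CPM of the 10 genes (y axes, from 0) by group (x axis); each point is a library, lines are group means, and the open diamond is the library labelled FLT3-ITD control 2. HMOX1 is at 19.9 and 22.8 CPM in treated FLT3-ITD libraries and at 0.621 to 1.22 CPM in OCI-AML3 controls, and the diamond is the lowest point for NFE2L2, KEAP1, NQO1, GCLM, GCLC and TXNRD1.

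HMOX2, the constitutive haem oxygenase, catalyses the same step. Per length, HMOX2 was at 12.9 ± 0.13 RPKM (CPM divided by exon length) in treated FLT3-ITD cells and 14.5 ± 1.4 RPKM in FLT3-ITD controls (SD, n = 2 and 3), and at 17.2 ± 0.6 RPKM in treated OCI-AML3 cells and 27.2 ± 2.2 RPKM in OCI-AML3 controls (SD, n = 3 each). It fell with FHD-286 in OCI-AML3 (log2 fold change -0.66, adjusted p = 1.5e-04) and did not pass in OCI-AML3-FLT3-ITD (-0.17, adjusted p = 0.21). HMOX1 made up 40.8 ± 2.6% of the summed HMOX1 and HMOX2 RPKM in treated FLT3-ITD cells and 9.32 ± 5.06% in FLT3-ITD controls, and 20.8 ± 1.8% in treated OCI-AML3 cells and 1.31 ± 0.37% in OCI-AML3 controls. HMOX2 thus remained the more abundant transcript per length in all 11 libraries, with the HMOX1 share between 0.95% and 42.6%.

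The biliverdin reductases did not follow HMOX1. BLVRB (ENSG00000090013.9, chromosome 19, 40447765 to 40465840) was at 14.8 and 16.8 CPM in treated FLT3-ITD cells, against 17.2, 19.0 and 14.9 CPM in FLT3-ITD controls, and these ranges overlapped. It was at 15.8, 15.7 and 14.99 CPM in treated OCI-AML3 cells, against 20.7, 18.6 and 23.7 CPM in OCI-AML3 controls, with all treated libraries lower (log2 fold change -0.44, or -0.28 when scaled by library totals, which moved the median of all genes to 0.17). BLVRA, which encodes the main adult biliverdin reductase, fell with FHD-286 in both lines, by 0.48 on the log2 scale in OCI-AML3-FLT3-ITD (adjusted p = 0.016) and by 1.00 in OCI-AML3 (adjusted p = 5.3e-05).

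Of the regulators, NFE2L2 had the widest range. NFE2L2 (ENSG00000116044.15, chromosome 2, 177227595 to 177392697) was at 196 and 168 CPM in treated FLT3-ITD cells, against 120, 53.8 and 117 CPM in FLT3-ITD controls. It was at 111, 114 and 115 CPM in treated OCI-AML3 cells, against 74.1, 73.3 and 73.0 CPM in OCI-AML3 controls. Treated libraries were above the controls of their line in both lines, at 1.87-fold and 1.54-fold of the control means in FLT3-ITD and OCI-AML3. Other genes, among them AGPS, overlap 20.9% of its exon length, and reads there cannot be told apart.

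KEAP1 and BACH1 differed less. KEAP1 (ENSG00000079999.13, chromosome 19, 10486120 to 10503741) was at 126 and 138 CPM in treated FLT3-ITD cells, against 126, 91.4 and 113 CPM in FLT3-ITD controls, where the lower treated library was close to control 1. It was at 135 to 144 CPM in treated OCI-AML3 cells, against 141 to 166 CPM in OCI-AML3 controls, and these ranges overlapped. BACH1 (ENSG00000156273.15, chromosome 21, 29194071 to 29630751) was at 54.4 and 47.2 CPM in treated FLT3-ITD cells, against 42.5 to 55.3 CPM in FLT3-ITD controls, again overlapping. In OCI-AML3 it was at 54.0 to 56.1 CPM with FHD-286, against 42.4 to 44.6 CPM in controls, so the transcript of the repressor was higher in the same treated cells in which HMOX1 was higher. Per length, NFE2L2 stood at 0.872 ± 0.150 of KEAP1 in treated FLT3-ITD cells and 0.541 ± 0.150 in FLT3-ITD controls, and at 0.513 ± 0.027 in treated OCI-AML3 cells and 0.308 ± 0.028 in OCI-AML3 controls.

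Glutamate-cysteine ligase makes the first step of glutathione synthesis from a catalytic subunit (GCLC) and a modifier subunit (GCLM), and its transcripts took different courses. GCLC (ENSG00000001084.10, chromosome 6, 53497341 to 53616970) was at 34.5 and 31.8 CPM in treated FLT3-ITD cells, against 23.5, 5.79 and 22.8 CPM in FLT3-ITD controls. It was at 12.9, 14.0 and 12.4 CPM in treated OCI-AML3 cells, against 8.42, 8.55 and 8.67 CPM in OCI-AML3 controls, and treated libraries were higher in both lines. GCLM (ENSG00000023909.9, chromosome 1, 93885205 to 93909456) was at 47.9 and 40.9 CPM in treated FLT3-ITD cells, against 47.4, 26.3 and 51.5 CPM in FLT3-ITD controls, and at 29.8, 33.9 and 30.3 CPM in treated OCI-AML3 cells, against 44.8, 43.9 and 40.9 CPM in OCI-AML3 controls. GCLM was thus lower in every treated OCI-AML3 library and overlapped its controls in the FLT3-ITD line. The GCLC to GCLM ratio per length was 0.470 ± 0.025 in treated FLT3-ITD cells and 0.242 ± 0.092 in FLT3-ITD controls, and 0.262 ± 0.009 in treated OCI-AML3 cells and 0.124 ± 0.008 in OCI-AML3 controls (SD, n = 2, 3, 3 and 3).

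**Figure D2:**
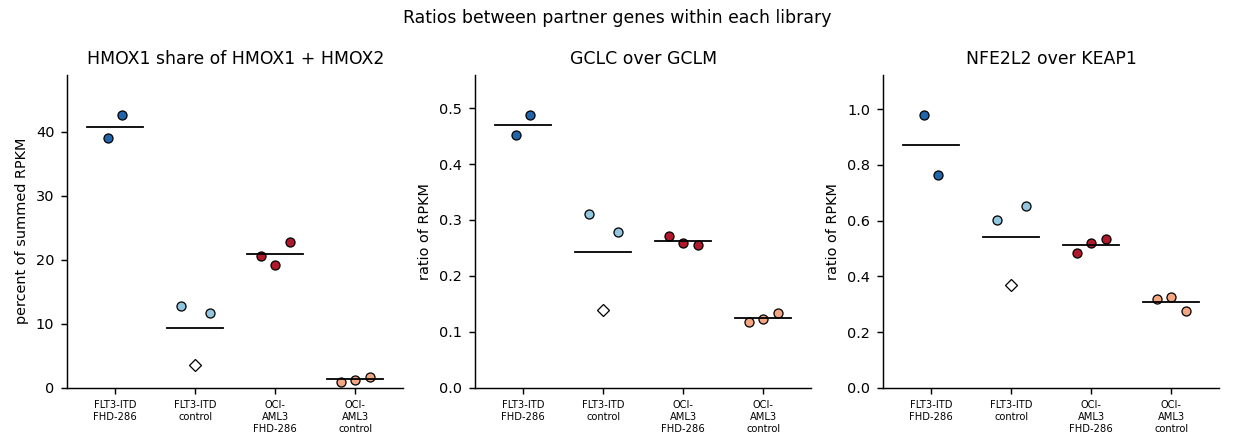
Within-library ratios of partner transcripts per length (y axes) by group (x axis): the HMOX1 percentage of HMOX1 plus HMOX2, GCLC over GCLM, and NFE2L2 over KEAP1; points are libraries, lines are group means and the open diamond is the library labelled FLT3-ITD control 2. In each panel the treated libraries of a line are above its controls, and that library is the lowest of its group.

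The enzymes that reduce quinones, thioredoxin and peroxiredoxin also took different courses. NQO1 (ENSG00000181019.12, chromosome 16, 69706996 to 69726951) was at 48.0 and 52.2 CPM in treated FLT3-ITD cells, against 41.2, 14.8 and 35.2 CPM in FLT3-ITD controls, and at 37.9, 36.4 and 38.2 CPM in treated OCI-AML3 cells, against 28.2, 27.1 and 30.1 CPM in OCI-AML3 controls. TXNRD1 (ENSG00000198431.15, chromosome 12, 104215779 to 104350305), the most abundant of the 10 genes per length after KEAP1 in both OCI-AML3 groups, was at 225 and 216 CPM in treated FLT3-ITD cells, against 200, 130 and 207 CPM in FLT3-ITD controls. In OCI-AML3 it was at 165 to 169 CPM with FHD-286, against 202 to 219 CPM in controls, so TXNRD1 was lower in treated OCI-AML3 cells. Its treated FLT3-ITD libraries were above their controls, but by little apart from the library labelled FLT3-ITD control 2. The FLT3-ITD log2 fold change was 0.30 (SE 0.16) with all libraries and 0.12 (SE 0.07) without that library. SRXN1 (ENSG00000271303.1, chromosome 20, 646615 to 653370) was scarce, at 0.206 and 1.57 CPM in treated FLT3-ITD cells, against 1.33 to 2.14 CPM in FLT3-ITD controls, and at 1.02 to 1.92 CPM in treated OCI-AML3 cells, against 1.92 to 2.02 CPM in OCI-AML3 controls. Its treated FLT3-ITD libraries differed from each other by more than any other group, and AL121758.1 overlaps 85% of its exon length. An antisense gene, AC092115.2, overlaps 17.7% of the exons of NQO1, and strand was not given in the sources used here.

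In edgeR's fit across 18908 genes, FHD-286 was called for 2 of the 10 genes in OCI-AML3-FLT3-ITD, both higher, where 30.5% of all genes were called, and for 3 in OCI-AML3, 2 higher and 1 lower, where 41.3% were called. All genes called higher and lower were 15.6% and 14.9% in OCI-AML3-FLT3-ITD and 19.8% and 21.5% in OCI-AML3. With the library labelled FLT3-ITD control 2 left out, 4 genes were called in OCI-AML3-FLT3-ITD, all higher, where 49% of 18662 genes were called and 24.8% called higher. In OCI-AML3 8 genes were then called, 5 higher and 3 lower, where 58.8% were called, 29% higher and 29.8% lower. Leaving that library out moved the FLT3-ITD log2 fold change of GCLC from 0.93 to 0.52, of NQO1 from 0.72 to 0.39 and of GCLM from 0.09 to -0.16. With all libraries, the median log2 fold change over the 10 genes was 0.28 in OCI-AML3-FLT3-ITD and 0.11 in OCI-AML3, beside medians over all genes of -0.02 and 0.01. Since these contrasts led to the choice of HMOX1, nothing is read from the counts.

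**Figure D3:**
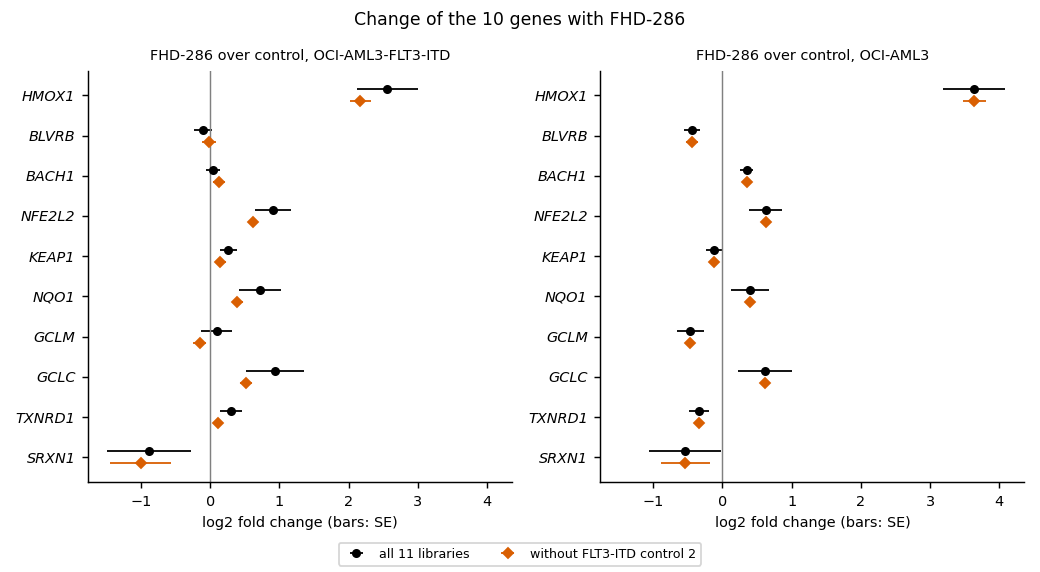
Log2 fold change of FHD-286 over control (x axis) for the 10 genes (y axis) in OCI-AML3-FLT3-ITD and OCI-AML3, with standard errors as bars; circles are all 11 libraries and diamonds leave out the library labelled FLT3-ITD control 2. HMOX1, at 2.56 and 3.64, is farthest from 0 in both lines, and with all libraries GCLM and TXNRD1 are below 0 in OCI-AML3 and above 0 in OCI-AML3-FLT3-ITD. Without that library GCLM is below 0 in OCI-AML3-FLT3-ITD too, at -0.16.

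Untreated cells of the 2 lines were compared next, a contrast that was not used to choose the genes although it shares its controls with the FHD-286 contrasts. HMOX1, whose controls also entered the fold changes it was selected on, was higher in the untreated FLT3-ITD line, by 2.05 on the log2 scale (95% interval 1.09 to 3.01, edgeR adjusted p = 0.0071), and by 2.44 without the library labelled FLT3-ITD control 2 (adjusted p = 4.9e-10). Its call is therefore not independent of its choice. KEAP1 was lower, at -0.46 (95% interval -0.70 to -0.21, adjusted p = 0.013) with all libraries and -0.34 (adjusted p = 9.2e-04) without that library. These were the 2 of 10 genes called, where 28% of all genes were called, 14.5% higher and 13.5% lower. When the library was left out, 7 of the 10 were called, 5 higher and 2 lower, where 49.4% of genes were called, 24.1% higher and 25.4% lower. The further calls were GCLC at 1.44 (adjusted p = 3.1e-12), NFE2L2 at 0.69 (adjusted p = 2.2e-08), NQO1 at 0.43 (adjusted p = 9.3e-05) and GCLM at 0.20 (adjusted p = 0.048), all higher, and BLVRB at -0.38 (adjusted p = 0.0025). With all libraries these 5 were not called: GCLC was at 1.02 (adjusted p = 0.071), NFE2L2 at 0.40 (adjusted p = 0.22), NQO1 at 0.10 (adjusted p = 0.82), GCLM at -0.05 (adjusted p = 0.87) and BLVRB at -0.30 (adjusted p = 0.084), so GCLM differed in sign between the fits. Both all-library calls were lost when only the groups compared were fitted (HMOX1 2.10, adjusted p = 0.053, and KEAP1 -0.40, adjusted p = 0.092), and that of KEAP1 also without OCI-AML3 control replicate 3, at -0.38 (adjusted p = 0.059). TXNRD1 was not called in either fit, with a 95% interval of -0.19 to 0.07 without the library, nor was BACH1, with an interval of -0.06 to 0.27.

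With FHD-286 in both lines, GCLC was higher in FLT3-ITD cells than in OCI-AML3 cells, by 1.34 (95% interval 0.42 to 2.26, adjusted p = 0.037), the 1 call among the 10 genes, where 26% of all genes were called and 14.3% called higher. This comparison holds only libraries whose FLT3 level fits their label, but its spread was estimated over all groups. Leaving out the library labelled FLT3-ITD control 2, 6 of the 10 genes were called and all were higher in FLT3-ITD cells, against 46.9% of genes called and 24.2% called higher. These were GCLC at 1.34, HMOX1 at 0.97, NFE2L2 at 0.69, GCLM at 0.50, NQO1 at 0.42 and TXNRD1 at 0.40, with adjusted p from 4.3e-12 to 9.7e-05. The treated libraries also entered the fold changes HMOX1 was selected on, so its call is not independent of its choice. The fold changes of these 6 genes were close to those with all libraries, where 5 of them had adjusted p between 0.073 and 0.35. The GCLC call was lost when any 1 of the 6 OCI-AML3 libraries or either treated FLT3-ITD library was left out, with differences of 1.28 to 1.40 and adjusted p of 0.056 to 0.17.

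The FHD-286 effect of the 10 genes was then compared between the lines. With all libraries edgeR called 0 of the 10 genes, where 3.36% of all genes were called, 1.98% higher and 1.38% lower. KEAP1 and TXNRD1 had an unadjusted p under 0.05, and DESeq2 also called 0. After the library labelled FLT3-ITD control 2 was left out, 3 of 10 were called, 2 higher and 1 lower, where 17% of genes were called, 9.63% higher and 7.39% lower. HMOX1 was 1 of the 3, but this difference is made of the fold changes HMOX1 was selected on, so its values, -1.08 (SE 0.61) with all libraries and -1.47 (SE 0.23) without that library, are a description with no test. Without that library the effect on TXNRD1 was higher in the FLT3-ITD line by 0.46 (adjusted p = 7.9e-04) and that on BLVRB by 0.41 (adjusted p = 0.041). With all libraries the differences for these 2 genes were 0.64 and 0.33, with adjusted p of 0.14 and 0.36. NFE2L2, NQO1 and GCLC were not called in either fit, with 95% intervals of -0.20 to 0.19, -0.23 to 0.22 and -0.33 to 0.13 without the library.

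**Figure D4:**
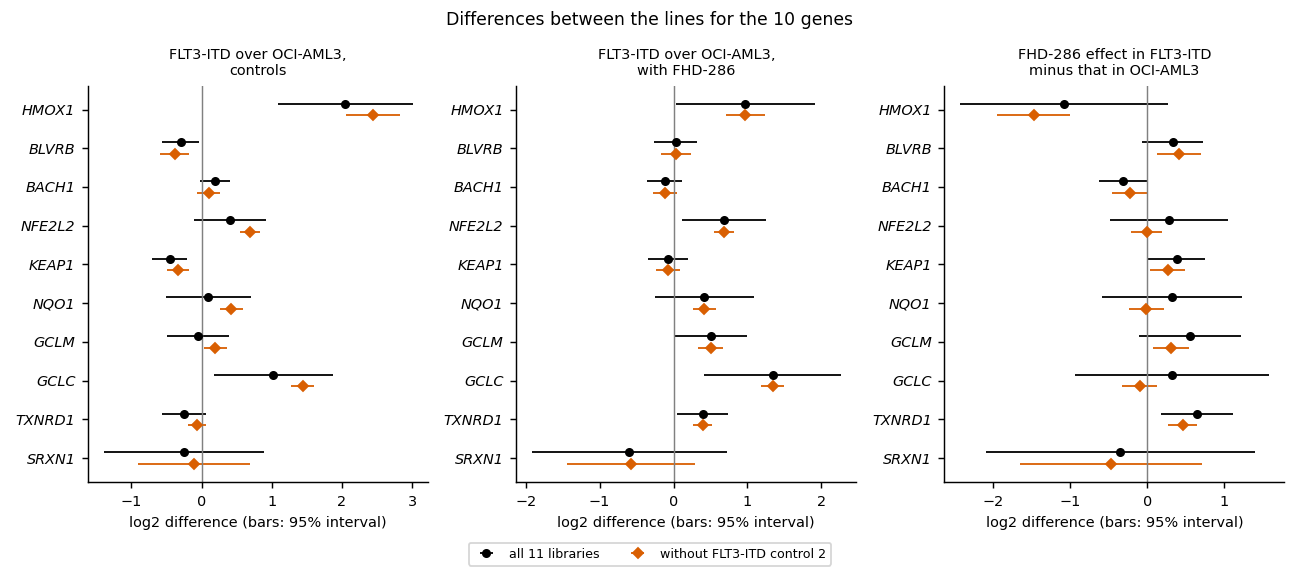
Log2 differences (x axes) for the 10 genes (y axes) between the lines without treatment, between the lines with FHD-286, and between the FHD-286 effects of the lines, with 95% intervals as bars; circles are all 11 libraries and diamonds leave out the library labelled FLT3-ITD control 2. GCLC and HMOX1 lie to the right of 0 in both line comparisons, and the intervals of GCLC and HMOX1 are narrower without the library. The HMOX1 value in the third panel is a description.

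Other genes of haem handling changed in both directions. For these and the later lists, all genes called higher and lower were 15.6% and 14.9% in OCI-AML3-FLT3-ITD and 19.8% and 21.5% in OCI-AML3. Without the library labelled FLT3-ITD control 2 these shares were 24.8% and 24.2%, and 29% and 29.8%, so more genes of any list could be called. Of 8 tested haem synthesis genes, 1 rose and 3 fell with FHD-286 in OCI-AML3-FLT3-ITD, or 4 falling without that library, and 2 rose and 4 fell in OCI-AML3. UROD, which makes coproporphyrinogen, fell by 0.71 in FLT3-ITD cells (adjusted p = 4.3e-04) and by 0.98 in OCI-AML3 cells (adjusted p = 1.3e-05), while ALAD, which makes porphobilinogen, rose by 0.48 (adjusted p = 0.0012) and 0.64 (adjusted p = 5.2e-05). Of 11 haem transport and binding genes, 1 rose and 2 fell in FLT3-ITD cells and 1 rose and 5 fell in OCI-AML3, or 5 and 8 falling without the library labelled FLT3-ITD control 2. Of 4 genes of ferritin and iron export, 0 rose and 2 fell in FLT3-ITD cells and 1 rose and 2 fell in OCI-AML3, or 3 falling without that library. Ferritin, which stores the iron that haem oxygenase frees, split by subunit. The light chain FTL was at 1338 and 1375 CPM in treated FLT3-ITD cells, against 1765 to 2443 CPM in their controls, and at 1095 to 1148 CPM in treated OCI-AML3 cells, against 2095 to 2420 CPM in their controls, falls of 0.61 (adjusted p = 0.0048) and 1.00 (adjusted p = 5.9e-05). The heavy chain FTH1 was at 347 to 370 CPM in treated OCI-AML3 cells, against 158 to 175 CPM in their controls, a rise of 1.12 (adjusted p = 0.012), and did not pass in FLT3-ITD cells (0.28, adjusted p = 0.56, and 0.02, adjusted p = 0.94, without the library labelled FLT3-ITD control 2). The treated FLT3-ITD libraries disagreed, with FTH1 over FTL at 0.186 in replicate 1 and 0.413 in replicate 2, against 0.114 to 0.184 in their controls. BEST1 overlaps 62.4% of the FTH1 exons in antisense. NCOA4, the receptor that delivers ferritin for breakdown, fell by 0.90 and 0.74 (adjusted p = 3.6e-05 and 2.7e-05).

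Transcripts linked to NRF2 turnover and those of its partners changed in both directions. Of 10 tested genes of NRF2 turnover, 6 rose and 1 fell in OCI-AML3-FLT3-ITD and 6 rose and 2 fell in OCI-AML3, with medians of 0.34 and 0.28. The counts were 6 and 2, and 7 and 3, without the library labelled FLT3-ITD control 2. The list is not limited to genes that promote NRF2 breakdown, so its counts give no direction of turnover. In FLT3-ITD cells CUL3, the scaffold of the KEAP1 ubiquitin ligase, rose by 0.37 (adjusted p = 0.0027) and BTRC, which marks NRF2 independently of KEAP1, by 0.52 (adjusted p = 0.0010). CDKN1A and SQSTM1, also in the list, rose there by 0.91 (adjusted p = 0.0010) and 0.78 (adjusted p = 0.0043). In OCI-AML3 GSK3B, the kinase that prepares NRF2 for BTRC, rose by 0.36 (adjusted p = 0.0018) and PGAM5, a mitochondrial KEAP1 partner, fell by 0.99 (adjusted p = 1.2e-04). Of 6 CNC and small MAF factors besides NFE2L2 and BACH1, 1 rose and 1 fell in FLT3-ITD cells and 1 rose and 1 fell in OCI-AML3. With the library labelled FLT3-ITD control 2 left out, 1 rose and 3 fell in FLT3-ITD cells and 3 rose and 2 fell in OCI-AML3. Among the small MAFs, MAFF rose in FLT3-ITD cells (0.52, adjusted p = 0.021), and in OCI-AML3 MAFG rose (0.41, adjusted p = 0.031) and MAFK fell (-0.47, adjusted p = 0.042). NFE2, the haematopoietic relative of NFE2L2, was at -2.93 in FLT3-ITD cells and at -0.87 without the library labelled FLT3-ITD control 2. In OCI-AML3 NFE2 was at -1.85 in both fits, and was called only without that library (adjusted p = 0.069 with all libraries and 3.6e-12 without).

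Classical NRF2 targets outside the 10 genes did not share a direction. Of 24 such genes tested, 4 rose and 5 fell in OCI-AML3-FLT3-ITD and 8 rose and 9 fell in OCI-AML3, with medians of -0.25 and -0.02. Leaving the library labelled FLT3-ITD control 2 out, the counts were 6 rising and 12 falling, and 10 and 10. Another list of 10 tested targets counted 1 rising and 5 falling in FLT3-ITD cells, and 1 and 3 in OCI-AML3. Its counts were 2 and 6, and 2 and 4, without that library. OSGIN1, PIR, ABCC1 and ABCC4 are in both lists, so these counts are not separate from those of the 24 genes. Of 8 genes of glutathione synthesis and recycling besides GCLC and GCLM, 2 rose and 1 fell in FLT3-ITD cells and 2 rose and 3 fell in OCI-AML3. Without that library 2 rose and 5 fell in FLT3-ITD cells, and 2 rose and 4 fell in OCI-AML3. SLC7A11, the cystine importer, was at 102 and 90.9 CPM in treated FLT3-ITD cells, against 129, 45.6 and 167 CPM in their controls, and at 35.4 to 38.0 CPM in treated OCI-AML3 cells, against 9.07 to 11.5 CPM in theirs. It rose in OCI-AML3 (1.82, adjusted p = 0.0022) and did not pass in FLT3-ITD cells (-0.24, adjusted p = 0.68). Without the library labelled FLT3-ITD control 2, in which SLC7A11 was at 45.6 CPM, it fell in FLT3-ITD cells (-0.62, adjusted p = 4.5e-05). GSR, which recycles glutathione, rose by 0.34 in FLT3-ITD cells (adjusted p = 0.0034).

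Thiol peroxidase and NADPH genes were counted next. Of 15 thioredoxin and peroxiredoxin genes besides TXNRD1 and SRXN1, 0 rose and 2 fell in OCI-AML3-FLT3-ITD, and 1 rose and 8 fell in OCI-AML3. With the library labelled FLT3-ITD control 2 left out, 9 and 10 fell. PRDX2, a cytosolic peroxiredoxin, was at 51.8 and 50.6 CPM in treated FLT3-ITD cells, against 107 to 181 CPM in their controls (-1.50, adjusted p = 1.4e-04), and at 44.3 to 46.1 CPM in treated OCI-AML3 cells, against 136 to 156 CPM in theirs (-1.70, adjusted p = 1.3e-05). Of 10 genes of NADPH supply, 1 rose and 4 fell in FLT3-ITD cells and 1 rose and 5 fell in OCI-AML3, or 1 and 9, and 1 and 7, without that library. IDH1, a cytosolic NADPH source, was at -0.73 and -0.90 (adjusted p = 9.7e-05 and 5.7e-06). Of 16 glutathione peroxidases and transferases, 0 rose and 4 fell in each line, among them MGST2 at -0.71 and -0.96 (adjusted p = 0.0084 and 3.9e-04). Leaving out that library, 4 rose and 6 fell in FLT3-ITD cells and 4 rose and 5 fell in OCI-AML3. Reductases were mixed, with 3 rising and 2 falling of 11 in FLT3-ITD cells and 5 and 3 in OCI-AML3, or 4 and 2, and 6 and 3, without that library. NQO2, the relative of NQO1, rose by 0.65 and 0.92 (adjusted p = 9.1e-05 and 2.6e-06).

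Of 4 superoxide dismutase and catalase genes, 2 rose and 1 fell in OCI-AML3. In FLT3-ITD cells these genes did not pass with all libraries, and 2 rose without the library labelled FLT3-ITD control 2. The phagocyte NADPH oxidase is a source of superoxide. Of its 7 genes, 0 rose and 6 fell in OCI-AML3-FLT3-ITD and 0 rose and 5 fell in OCI-AML3, with 1 rising and 6 falling in FLT3-ITD cells without the library labelled FLT3-ITD control 2. CYBB, its catalytic subunit, was at 32.9 and 29.1 CPM in treated FLT3-ITD cells, against 237 to 283 CPM in their controls, and at 25.6 to 31.8 CPM in treated OCI-AML3 cells, against 236 to 244 CPM in theirs, falls of 3.07 (adjusted p = 1.9e-07) and 3.10 (adjusted p = 2.7e-08). Heat shock genes, which stress can induce together with HMOX1, counted 4 rising and 0 falling of 9 in FLT3-ITD cells, and 0 rising and 5 falling in OCI-AML3. Omitting the library labelled FLT3-ITD control 2, the FLT3-ITD counts were 4 and 4, and those in OCI-AML3 were 0 and 7. HSPA1A, an inducible HSP70 that may share reads with its near-identical copy HSPA1B, rose by 1.22 in FLT3-ITD cells (adjusted p = 1.5e-05), at 68.8 and 59.3 CPM against 25.9 to 30.0 CPM in their controls, and did not pass in OCI-AML3 (-0.12, adjusted p = 0.33).

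**Figure D5:**
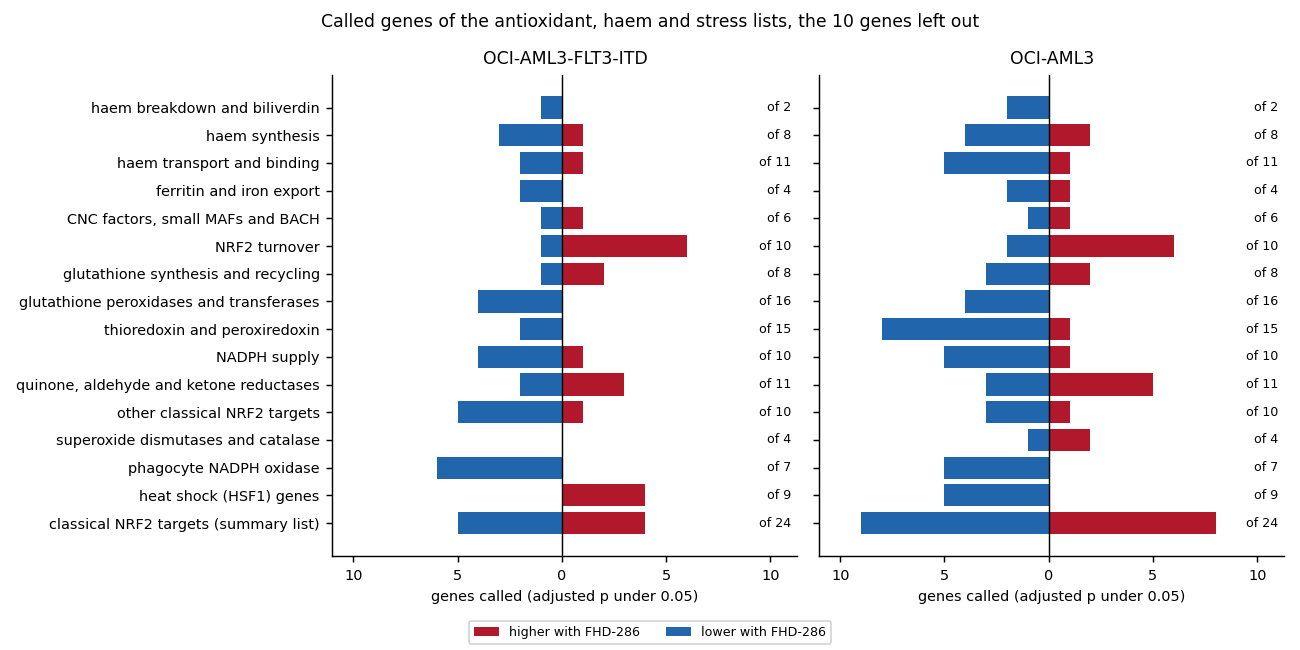
Number of genes called higher (right, red) and lower (left, blue) with FHD-286 (x axes) in each list (y axis), without the 10 genes, in OCI-AML3-FLT3-ITD and OCI-AML3, with the number tested at the right edge. Phagocyte NADPH oxidase genes extend only to the left, at 6 and 5 of 7, and classical NRF2 targets extend both ways, at 4 and 5 and at 8 and 9 of 24. All genes called higher and lower were 15.6% and 14.9% in OCI-AML3-FLT3-ITD and 19.8% and 21.5% in OCI-AML3.

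By Pearson correlation of log2 CPM over the 11 libraries, among 10521 genes, the 5 genes most like HMOX1 were CTSF (r = 0.995), SLC25A45 (0.993), TRIOBP (0.992), SYNE1 (0.991) and NAB2 (0.990). Without the library labelled FLT3-ITD control 2 they were ADGRE5, TMEM63B, TRIOBP, CTSF and YPEL3, with r of 0.993 to 0.997. The libraries share their groups, so r describes a common order of group levels. CTSF, a lysosomal protease, averaged 36.4 CPM in treated FLT3-ITD cells, 17.4 CPM in FLT3-ITD controls, 27.8 CPM in treated OCI-AML3 cells and 9.07 CPM in OCI-AML3 controls. None of the other 9 genes was among these.

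Markers of cells known for high HMOX1 or BLVRB were examined beside these results, since in bulk RNA fewer cells of a type and less RNA per cell cannot be told apart. Of 8 erythroid markers, HBB and HBG1 were at 0 in all libraries, and the summed level was 30.0 to 34.6 CPM in treated FLT3-ITD cells, 9.68 to 22.0 CPM in FLT3-ITD controls, 42.7 to 45.6 CPM in treated OCI-AML3 cells and 18.9 to 21.6 CPM in OCI-AML3 controls, nearly all from EPOR. The 7 macrophage markers summed to 25.0 to 28.7 CPM in treated FLT3-ITD cells, 7.07 to 64.8 CPM in FLT3-ITD controls, 5.17 to 5.94 CPM in treated OCI-AML3 cells and 15.2 to 16.6 CPM in OCI-AML3 controls, with SPIC at 0 throughout. The value of 7.07 CPM is that of the library labelled FLT3-ITD control 2. The macrophage sum was lower in treated than in control OCI-AML3 libraries, where HMOX1 was higher. With FHD-286 in FLT3-ITD cells, where HMOX1 was also higher, 0 of 5 tested macrophage markers were called higher and 1 lower (median log2 fold change -1.57). Without that library 0 of 4 were called higher and 3 lower (-1.50). All genes called lower in FLT3-ITD cells were 14.9%, or 24.2% without that library. Between the lines the macrophage sum was higher in FLT3-ITD cells together with HMOX1, both with FHD-286 and in controls apart from that library. Its largest part was CD163, at means of 22.9 and 30.1 CPM in treated and control FLT3-ITD cells and 4.31 and 9.61 CPM in OCI-AML3. CD14 and MARCO were also higher in the FLT3-ITD line. CD68 and VSIG4 were lower, CD68 at 0.043 against 0.184 CPM with FHD-286 and 0.107 against 0.150 CPM in controls. Other genes, among them AC016876.1, overlap 85.8% of the CD68 exon length, and reads there cannot be told apart. VSIG4 was at 0.027 against 0.031 CPM with FHD-286, below the level of 3 counts, and at 0.136 against 0.157 CPM in controls. Between untreated lines 1 of 5 tested macrophage markers was called higher (median log2 difference 0.78), or 3 of 4 without that library (1.70). Between treated lines 2 of 5 were called higher (1.18), or 3 higher and 1 lower of 4 without that library (1.61). All genes called higher were 14.5% and 14.3% in these comparisons, or 24.1% and 24.2% without that library. Of the AML markers, SPI1, CD33 and LYZ were present in all groups, KIT was at or near 0, and the sum of 5 markers was 68.5 to 69.3 CPM in treated FLT3-ITD cells, 404 to 458 CPM in FLT3-ITD controls, 86.5 to 98.0 CPM in treated OCI-AML3 cells and 550 to 605 CPM in OCI-AML3 controls. Lymphoid, megakaryocyte and stromal markers summed to at most 3.92, 0.794 and 0.665 CPM in any library. The part of these shifts in the antioxidant results was not tested.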

How the data were processed

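RNA of 11 cell line libraries was sequenced. The authors deposited a table of raw, unnormalised read counts with 58037 Ensembl gene rows. Per the submitters' processing notes STAR and hg38 were used, and neither the counting program nor its annotation and strand setting is given in the sources used here. GENCODE 29 on GRCh38 supplied symbols, coordinates and exon lengths for 57433 rows.

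Genes passing filterByExpr of edgeR 4.0.16 (minimum count 10, minimum total 15; 18908 genes) were scaled with TMM factors. In R 4.3.3, edgeR's quasi-likelihood test was applied to all 4 groups in 1 fit, leaving 7 residual degrees of freedom, for FHD-286 over control in either line, FLT3-ITD over OCI-AML3 in controls and in treated cells, and the difference of the FHD-286 effects. Tests were two-sided. The Benjamini-Hochberg adjustment covered every tested gene, and a gene was called at an adjusted p under 0.05. The SE was taken from the fold change and its F statistic. The code was tested on simulated counts.

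The 10 genes and 16 gene lists were chosen with earlier results of these data known. Some lists share genes, so their counts cannot be added. Per list, up to 3 further genes with the smallest p in an FHD-286 contrast and 1 called gene of the minority direction could be named, besides HMOX2, BLVRA and FLT3. Alternatives were other scalings and filters, DESeq2 1.42.0, a block for the replicate number, fits of only the groups compared, and leaving out each library.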

Additional observations from a re-analysis of the deposited data

Results flagged for a closer look

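Among the genes named, 6 outside the 10 genes differed between the lines in their FHD-286 effect by edgeR's interaction test, given as FLT3-ITD minus OCI-AML3 on the log2 scale. Over all genes 3.36% were called, or 17% without the library labelled FLT3-ITD control 2. The 6 genes were named for a small p in an FHD-286 contrast, which is part of this difference. Their adjusted p are therefore not independent of that choice. TXNIP, the thioredoxin-binding protein, differed by -1.05 (adjusted p = 0.0017): it fell in OCI-AML3-FLT3-ITD and rose in OCI-AML3, at 374 to 395 CPM with FHD-286 against 513 to 594 CPM in FLT3-ITD controls, and 334 to 347 CPM with FHD-286 against 224 to 243 CPM in OCI-AML3 controls. HSPA1A differed by 1.34 (adjusted p = 0.0017) and HSPA1B, a near-identical copy whose reads may be shared with it, by 1.22 (adjusted p = 0.0031). FLVCR1, a haem exporter, differed by 0.497 (adjusted p = 0.037), GSR by 0.412 (adjusted p = 0.037) and NCF4, an oxidase subunit, by -0.594 (adjusted p = 0.022). All 6 were also called without the library labelled FLT3-ITD control 2, at -0.97 for TXNIP, 1.32 for HSPA1A, 1.11 for HSPA1B, 0.47 for FLVCR1, 0.38 for GSR and -0.63 for NCF4.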

How the results depend on the processing

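Leaving out 1 library at a time gave 1 to 4 of the 10 genes called for FHD-286 in OCI-AML3-FLT3-ITD, 2 to 8 in OCI-AML3, 1 to 7 between untreated lines, 0 to 6 between treated lines and 0 to 3 for the difference. Calls over all genes were 2908 to 9140, 6132 to 10973, 2914 to 9223, 1909 to 8756 and 105 to 3177 in the same order, each highest without the library labelled FLT3-ITD control 2.

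With only the groups compared, 1 and 9 of the 10 genes were called for FHD-286 in FLT3-ITD and OCI-AML3, 0 between untreated lines (edgeR; HMOX1 2.10, adjusted p = 0.053, and KEAP1 -0.40, adjusted p = 0.092) and 6 between treated lines. Calls over all genes were then 1618 in FLT3-ITD (5767 in the fit of all groups), 11333 in OCI-AML3 (7816), 1736 between untreated lines (5289; 62.1% higher, against 51.8%) and 9581 between treated lines (4916), and the difference, which needs all 4 groups, has no such fit. Without a filter 4 of the 10 genes were called in FLT3-ITD and 3 between treated lines, beside 5431 and 4697 genes in all. DESeq2 called 2 between treated lines, and 1467 genes for the difference, against 635 by edgeR. With the replicate block 349 genes were called for the difference and 7508 in OCI-AML3, 5170 in FLT3-ITD, 4714 between untreated and 4459 between treated lines, with 0, 4, 2, 2 and 1 of the 10 genes. Over 15 pairs of same-numbered libraries the correlation of deviations from group means was -0.23 to 0.30, and 4 pairs were over 0.1. In groups of 2 or 3 libraries these deviations depend on each other, so the values cannot decide whether same-numbered libraries were paired.

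Scaling by library totals moved the median of all genes to 0.17 in OCI-AML3 and 0.11 between untreated lines, and the share of higher calls to 64.1% in FLT3-ITD (51.3% with TMM), 63.1% in OCI-AML3 (47.9%) and 67.7% between untreated lines (51.8%). Upper-quartile scaling gave 62.7% between untreated lines and 45.2% for the difference (59.1%). Values that changed sign were KEAP1 in OCI-AML3 (0.038) and BLVRB in FLT3-ITD (2.6e-05) with library totals, and GCLM between untreated lines with upper-quartile scaling (0.0041), library totals (0.042) and only the groups compared (8.7e-04). Leaving out single libraries also turned signs: the log2 range was -0.068 to 0.14 for BACH1 and -0.16 to 0.27 for GCLM with FHD-286 in FLT3-ITD, -0.23 to 0.20 for GCLM and -0.18 to 0.43 for NQO1 between untreated lines, -0.061 to 0.11 for BLVRB and -2.71 to 0.21 for SRXN1 between treated lines, and, for the difference, -0.0071 to 0.46 for NFE2L2, -0.0092 to 0.60 for NQO1, -0.097 to 0.59 for GCLC and -2.45 to 0.47 for SRXN1. The cause was not tested. Counting error was largest for SRXN1, with 15 and 129 counts in the treated FLT3-ITD libraries, and for HMOX1 in OCI-AML3 controls, with 34 to 68 counts.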
